A study of Mus musculus with 24 samples.

Results

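The transcriptome of engineered muscle stimulated with light at 10 Hz was compared with that of muscle stimulated at 1 Hz, 6 libraries against 6, which were 12 of the 24 libraries of the study. They were chosen by the frequency in their titles, and 13318 of the 56941 genes in the table passed the filter on low counts and were tested. Both groups were made from C2C12 myoblasts, an established line derived from mouse muscle, of the genotype ChR2::tdTomato, in which the blue light-gated cation channel channelrhodopsin-2 (H134R) is fused to a red fluorescent protein. The myoblasts were seeded on grooved fibrin hydrogels, differentiated in horse serum and IGF-1 into sheets of fused fibers, and lit for 30 min per day from the start of differentiation until RNA extraction after 2 weeks. The sessions were equally long, so 10 Hz tissues also received more pulses, and pulse rate and pulse number cannot be told apart. All tissues came from a single cell line that was cultured without nerve, blood vessel, or immune cells, and the sources used here do not give the interval between the last session and extraction. The other 12 libraries (6 unstimulated controls of the same genotype and 6 tissues at 4 Hz) entered the same fit, and their levels are given only as values beside the comparison.

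Each light pulse depolarizes the fiber membrane, and the voltage sensor Cav1.1 opens the ryanodine receptor so that calcium leaves the sarcoplasmic reticulum and the fiber contracts. Separate pulses at a low rate give separate twitches, whereas pulses at a high rate reach the fiber before it has relaxed and the twitches fuse. Calcium also reaches the nucleus as a signal, through calcineurin and NFAT, calmodulin-dependent kinases, and the MAPK cascade, which switch on immediate-early genes within minutes. Over days, trained muscle is known for changes in its myosins, glucose handling, mitochondria, secreted factors, and matrix.

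A gene was counted where edgeR's quasi-likelihood test gave a Benjamini-Hochberg adjusted p below 0.05 over all 13318 genes and the log2 fold change (10 Hz minus 1 Hz) was beyond 0.5 in size. By this rule, 1259 genes (9.45%) were upregulated and 1131 (8.49%) downregulated at 10 Hz relative to 1 Hz, together 17.9% of the genes tested. Over all genes the log2 fold change had a median of 0.01. Changes were mostly moderate: among the genes counted the median absolute log2 fold change was 0.75, and 418 rose and 206 fell by more than 2-fold. All 6 libraries at 10 Hz lay above all 6 at 1 Hz in 755 genes (5.67%) and below them in 997 (7.49%). The upregulated genes included many noncoding ones, 26.4% of those with annotation against 9.83% of all genes tested, while 2.65% of the downregulated genes were noncoding. Levels below are in CPM, a gene's count relative to its library's TMM-scaled total.

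**Figure D1:**
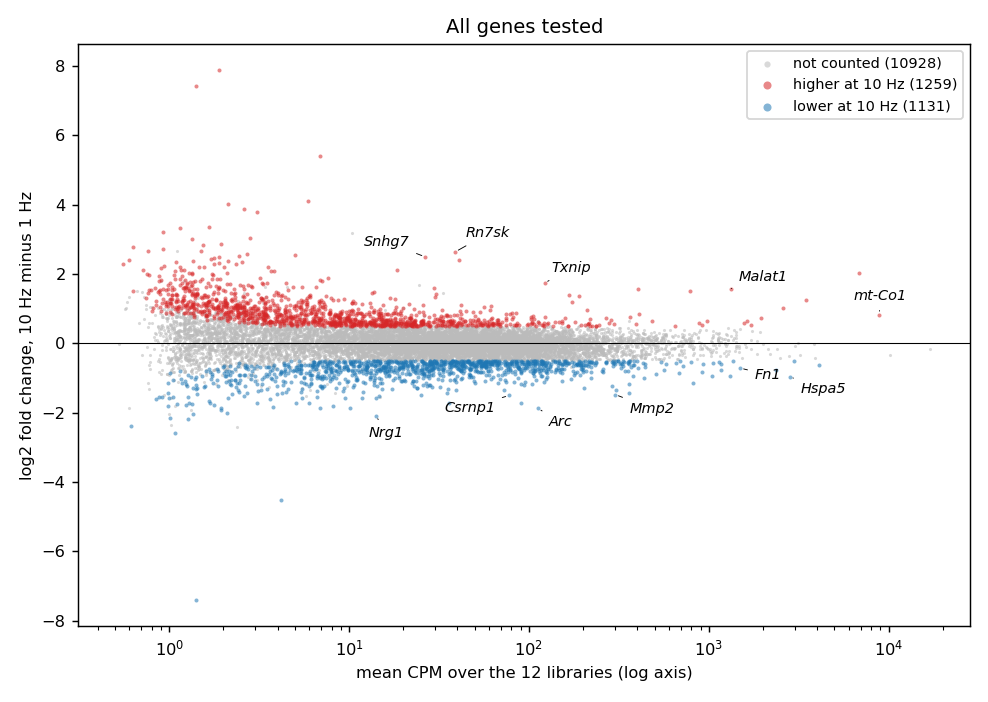
Each point is 1 of the 13318 genes tested, with its mean level over the 12 libraries (CPM, log axis) on the horizontal axis and its log2 fold change (10 Hz minus 1 Hz) on the vertical axis. Red and blue points are the 1259 genes higher and the 1131 genes lower at 10 Hz, and the largest fold changes belong to genes of low level.

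In a principal component analysis of 500 highly variable genes, component 1 accounted for 26.8% of the variance and separated the groups without overlap (scores of 4.14 to 21.2 for 10 Hz, -21 to -0.591 for 1 Hz; 2-sided exact permutation test, p = 0.00216, the smallest that 6 against 6 allows). Library makeup also differed. Small RNAs without a poly(A) tail, such as 7SK, made up 124 ± 86.6 CPM of the total count in 10 Hz libraries and 29.2 ± 21.1 in 1 Hz libraries (n = 6, SD; p = 0.00866 by exact permutation, Benjamini-Hochberg adjusted over 8 measures 0.0139), against 130 ± 23.2 in controls and 26.7 ± 12.3 at 4 Hz. Nuclear ribosomal RNA genes took 1.11 ± 0.667% and 0.268 ± 0.2% of counts (adjusted exact permutation p = 0.013). Total counts did not separate the groups, with 5.41 to 12.1 M (mega) at 10 Hz and 4.09 to 15.2 M at 1 Hz. The labels say that libraries of low input were made by ribodepletion instead of poly(A) selection and do not say which ones. The part of the small RNA share in the gene results was not tested as a cause. With this share as a covariate, 89 genes were higher and 151 lower (0.668% and 1.13%), and 220 of these 240 were counted in the same direction without it. Counts with the covariate stand beside the groups of genes below.

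**Figure D2:**
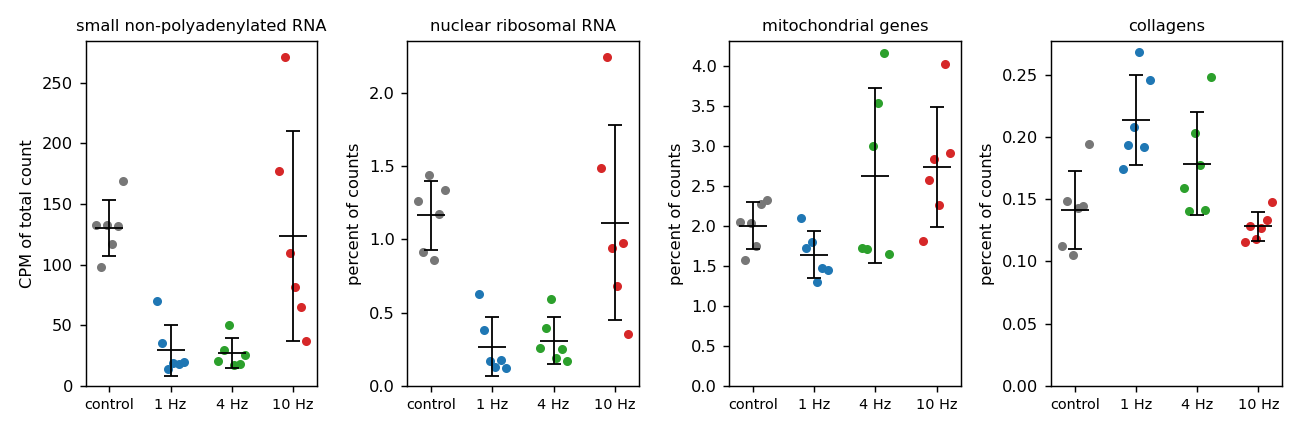
Points are libraries in the 4 conditions, bars the mean and SD of 6. The vertical axes give small non-polyadenylated RNA in CPM of the total count and, as a percent of counts, nuclear ribosomal RNA, protein-coding genes of the mitochondrial genome, and collagens. Small and ribosomal RNA shares at 10 Hz spread widely around those of the controls, and all 10 Hz collagen shares (0.115% to 0.148%) lay below all those at 1 Hz (0.174% to 0.269%).

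Several activity-linked genes were lower at 10 Hz, led by Arc and Csrnp1. Arc (ENSMUSG00000022602, chromosome 15, 74540932 to 74544419, minus strand, 3 exons; GRCm39), an immediate-early gene whose protein is known for synaptic plasticity in neurons, ranged over 34.3 to 70.3 CPM (median 45.3) at 10 Hz and 106 to 219 CPM (median 176) at 1 Hz. The 2 ranges did not overlap, and the difference was 3.67-fold (log2 fold change -1.88, SE 0.18, adjusted p = 1.1e-07). Its level was 35.4 ± 7.92 CPM (SD, n = 6) in controls and 111 ± 24.7 CPM at 4 Hz. Csrnp1, an immediate-early nuclear protein, ranged over 31.1 to 52.04 CPM (median 38.7) at 10 Hz and 85.6 to 135 CPM (median 115) at 1 Hz, again without overlap (log2 fold change -1.50, SE 0.12, adjusted p = 7.3e-09). Both genes also fell with the small RNA covariate, by 1.33 and 1.42 on the log2 scale.

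Of 29 immediate-early genes tested, 11 (37.9%) were lower at 10 Hz, against 8.49% of all genes, and the list's median log2 fold change was -0.22 against 0.01. They were Arc, Csrnp1, Klf4, Atf3, Myc, Jund, Nr4a3, Fosb, and the zinc finger factors Egr1, Egr2, and Egr3, with falls from 0.60 to 1.88. Egr1, a factor that relays growth signals to its targets, ranged over 102 to 189 CPM (median 121) at 10 Hz and 199.6 to 291 CPM (median 227) at 1 Hz (log2 fold change -0.87, SE 0.13, adjusted p = 1.5e-05). Egr2 had medians of 10.4 and 24.1 CPM at 10 and 1 Hz, and Fosb, a partner of Jun in the AP-1 factor, medians of 17.6 and 44.2 CPM. Myc, which drives growth genes, had medians of 46.4 and 87.4 CPM (log2 fold change -0.91, SE 0.12, adjusted p = 2.7e-06). Fos itself did not pass the test, with medians of 12.4 and 11.2 CPM and an adjusted p of 0.464. In controls Egr1 stood at 272 ± 49.6 CPM (SD, n = 6) and Myc at 53.2 ± 7.002 CPM (SD, n = 6). With the covariate, 8 of the 11 remained lower, the largest number retained by any of the lists.

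**Figure D3:**
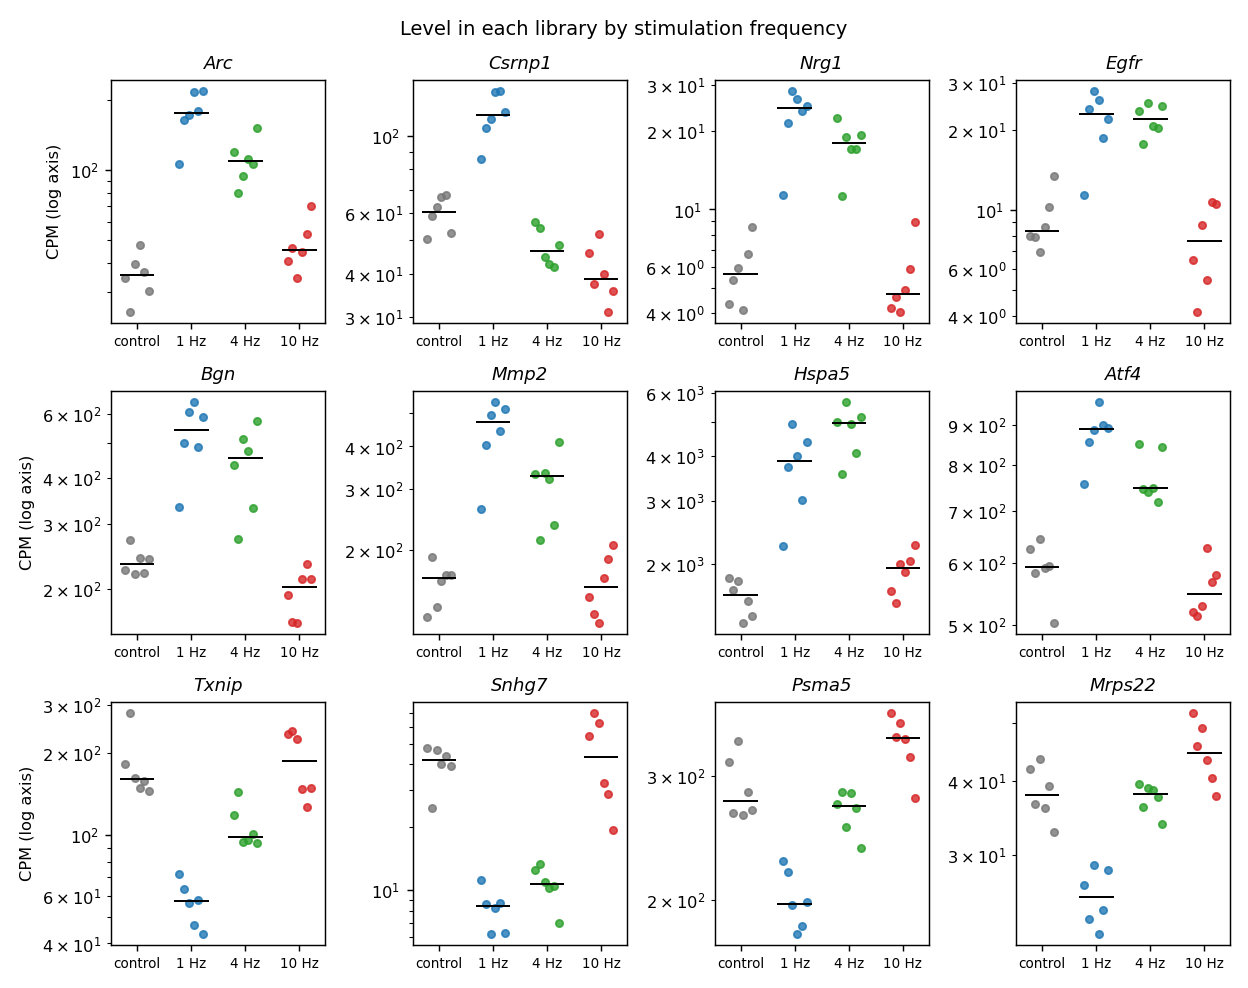
Each panel shows 1 gene in the 24 libraries, with CPM on a log axis against condition, and a bar at the median of 6. The upper 8 genes are lower at 10 Hz than at 1 Hz and the lower 4 are higher, and in 11 of the 12 panels, all but that of Hspa5, the 10 Hz and 1 Hz libraries did not overlap.

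Feedback inhibitors of the MAPK cascade are switched on by the signal they restrain. Of 18 tested, 8 (44.4%) were lower and 2 (11.1%) higher, against 8.49% and 9.45% of all genes. Dusp10, a phosphatase of the stress kinases p38 and JNK, ranged over 50.4 to 67 CPM (median 56.4) at 10 Hz and 90 to 127 CPM (median 119) at 1 Hz (log2 fold change -0.99, SE 0.09, adjusted p = 1e-07). Errfi1, an inhibitor of the EGF receptor kinase, had medians of 144 and 246 CPM at 10 and 1 Hz (log2 fold change -0.75 ± 0.12 (SE)). Spry4 and Spred3, inhibitors of Ras signalling, went the other way, each with a log2 fold change of 0.99. With the covariate, 3 of the falls and neither rise were counted. Calcium-dependent regulators were lower in 6 of 25 members (24%, against 8.49% of all genes) and by a median of 0.39 on the log2 scale. Nfatc1, the calcineurin-activated factor, ranged over 14.8 to 28.2 CPM (median 19.5) at 10 Hz and 27.6 to 68.6 CPM (median 52.04) at 1 Hz (log2 fold change -1.32, SE 0.22, adjusted p = 5.1e-05), and Hdac4, a repressor of MEF2 that leaves the nucleus on CaMK signalling, over 17.2 to 30.6 CPM (median 21.6) at 10 Hz and 32.6 to 50.95 CPM (median 39.6) at 1 Hz (log2 fold change -0.87, SE 0.12, adjusted p = 1.1e-05). None of these 6 was counted with the covariate, and without the 10 Hz replicates 1 and 2 only 3 were lower.

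Of 11 ligands and receptors of the ErbB family tested, 3 (27.3%) were lower, against 8.49% of all genes. Only 1 (9.09%) was higher, near the 9.45% of all genes. Neuregulin 1 (ENSMUSG00000062991, chromosome 8, 32303906 to 33374825, minus strand, 8 exons), a growth factor for muscle spindles, synapses, and Schwann cells, ranged over 4.07 to 8.96 CPM (median 4.76) at 10 Hz and 11.4 to 28.5 CPM (median 24.4) at 1 Hz (log2 fold change -2.09, SE 0.21, adjusted p = 2.2e-07). Egfr, the receptor of EGF, ranged over 4.15 to 10.7 CPM (median 7.61) at 10 Hz and 11.4 to 27.99 CPM (median 22.9) at 1 Hz (log2 fold change -1.51, SE 0.20, adjusted p = 5.3e-06). In neither gene did the ranges overlap, although those of Egfr nearly met, and both stood close to 10 Hz levels in the controls, Nrg1 at 5.85 ± 1.65 CPM (SD, n = 6) and Egfr at 9.18 ± 2.33 CPM (SD, n = 6). Hbegf, a ligand of Egfr, had medians of 92.5 and 140.4 CPM at 10 and 1 Hz (log2 fold change -0.59 ± 0.09 (SE)). Betacellulin, encoded by Btc, was higher, with medians of 5.16 and 3.06 CPM (log2 fold change 1.19, SE 0.29, adjusted p = 0.00204). Nrg1 and Hbegf were also counted with the covariate, and Btc was not.

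The lists of ATF4 and its targets and of folding in the endoplasmic reticulum (ER) held the largest shares of lower genes after the myosin heavy chains. A cell that makes much secreted or membrane protein senses unfolded chains with ATF6, IRE1, and PERK. ATF6 and the IRE1 product XBP1 raise chaperones through a promoter sequence called the ER stress response element. PERK is 1 route that raises the factor ATF4, which induces amino acid genes through the C/EBP-ATF response element. Of 27 genes of ER folding and degradation, 14 (51.9%) were lower at 10 Hz and 1 higher, with a median log2 fold change of -0.54. Of 26 tested genes of ATF4 and its targets, 19 (73.1%) were lower, with a median of -0.62, and all 26 had a negative value. Among the 7 not counted were Ddit3 (log2 fold change -0.41) and Ppp1r15a (-0.44). Which route changed the ATF4 genes was not tested.

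Promoters of 6 of these lower genes are shown because they carry the element by which each pathway is known to act. They are the 200 bases upstream of the canonical transcript's start in GRCm39, 5′ to 3′ on the gene's strand. Capitals mark the ER stress response element (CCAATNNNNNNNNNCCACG) in the first 3 and the C/EBP-ATF response element (TGATGNAA) in the last 3, on either strand.
Hspa5 (chr2:34661904-34662103, plus strand): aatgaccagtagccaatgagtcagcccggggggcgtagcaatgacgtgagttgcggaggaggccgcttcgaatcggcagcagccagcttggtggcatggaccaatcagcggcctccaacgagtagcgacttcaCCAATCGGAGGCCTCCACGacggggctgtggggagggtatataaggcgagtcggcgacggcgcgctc
Hsp90b1 (chr10:86541379-86541578, minus strand): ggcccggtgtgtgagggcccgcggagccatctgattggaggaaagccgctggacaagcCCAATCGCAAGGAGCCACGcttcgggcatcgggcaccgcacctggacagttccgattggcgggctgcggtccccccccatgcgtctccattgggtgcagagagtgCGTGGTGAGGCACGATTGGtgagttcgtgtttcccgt
Syvn1 (chr19:6096406-6096605, plus strand): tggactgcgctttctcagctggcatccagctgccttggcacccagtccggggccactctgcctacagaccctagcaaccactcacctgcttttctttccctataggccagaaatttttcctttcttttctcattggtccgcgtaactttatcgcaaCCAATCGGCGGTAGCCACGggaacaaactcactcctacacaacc
Vldlr (chr19:27194212-27194411, plus strand): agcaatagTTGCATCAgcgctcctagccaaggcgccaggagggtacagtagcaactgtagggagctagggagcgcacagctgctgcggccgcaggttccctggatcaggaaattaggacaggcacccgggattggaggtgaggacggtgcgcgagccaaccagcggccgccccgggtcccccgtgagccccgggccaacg
Chac1 (chr2:119181489-119181688, plus strand): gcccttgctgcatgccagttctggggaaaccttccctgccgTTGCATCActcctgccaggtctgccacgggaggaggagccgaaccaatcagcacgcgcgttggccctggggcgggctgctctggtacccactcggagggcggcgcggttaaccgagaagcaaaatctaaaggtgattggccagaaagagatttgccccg
Pycr1 (chr11:120534599-120534798, minus strand): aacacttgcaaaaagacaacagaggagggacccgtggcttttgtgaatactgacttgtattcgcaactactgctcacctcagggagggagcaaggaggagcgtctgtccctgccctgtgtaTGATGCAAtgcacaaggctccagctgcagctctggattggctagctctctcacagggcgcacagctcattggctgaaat

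Both strands were searched from 250 bases before to 50 after the start, in 13292 promoters. The ER stress response element was found in 15 (0.113%) of them, of which 8 belonged to the 27 ER folding genes and 5 of those to genes counted as lower. The 5 were Hspa5, Hsp90b1 with 2 matches, Syvn1, Calr, and Pdia6. The C/EBP-ATF response element was found in 335 promoters (2.52%), in 6 of the 26 ATF4 genes and in 5 of the 19 counted as lower, which were Vldlr, Chac1, Pycr1, Fgf21, and Slc7a11 with 2 matches. The call of Slc7a11 ended when 1 of several libraries was left out (adjusted p up to 0.121). Among all downregulated genes 3.63% held it, against 2.57% of the upregulated ones. A match is a description of the sequence.

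Hspa5 (ENSMUSG00000026864, chromosome 2, 34661982 to 34668880, plus strand, 8 exons) encodes BiP, the main chaperone of the ER. It ranged over 1558 to 2261 CPM (median 1955) at 10 Hz and 2249 to 4918 CPM (median 3874) at 1 Hz, and only the lowest 1 Hz library, replicate 1, reached down to the highest at 10 Hz (log2 fold change -0.96, SE 0.14, adjusted p = 1.5e-05). Its level was 1616 ± 188 CPM (SD, n = 6) in controls and 4731 ± 767 CPM at 4 Hz. Hsp90b1, the ER form of Hsp90, ranged over 580.2 to 883 CPM (median 712) at 10 Hz and 962 to 1856 CPM (median 1399.7) at 1 Hz without overlap (log2 fold change -0.94, SE 0.13, adjusted p = 7.7e-06). Calreticulin (Calr), a calcium-binding chaperone of the lumen, varied little among 10 Hz tissues and widely among 1 Hz tissues, over 1648 to 1833 CPM (median 1757) at 10 Hz and 1761 to 3775 CPM (median 3003) at 1 Hz (log2 fold change -0.77 ± 0.14 (SE)).

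Some genes that remove misfolded proteins from the ER were lower too, while others of this system, Edem1, Derl1, and Selenos, named after their values were seen, were inside the limit of 0.5 (log2 fold changes of -0.35, -0.30, and 0.23). Herpud1, a scaffold of ER-associated degradation, ranged over 150.2 to 266 CPM (median 237) at 10 Hz and 291 to 593 CPM (median 536) at 1 Hz (log2 fold change -1.19, SE 0.15, adjusted p = 2.7e-06). Its partners Sel1l and Syvn1, the adaptor and the ubiquitin ligase of the same complex, had log2 fold changes of -0.75 and -0.54. The sensor Atf6 had medians of 118 and 188 CPM at 10 and 1 Hz without overlap (log2 fold change -0.73, SE 0.08, adjusted p = 2.7e-07). Hspa13, an Hsp70 of microsomes, was the single member that rose (log2 fold change 0.52 ± 0.14 (SE)). With the covariate 4 of the 14 remained lower.

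Atf4 (ENSMUSG00000042406, chromosome 15, 80139372 to 80141745, plus strand, 3 exons) ranged over 513 to 627 CPM (median 547) at 10 Hz and 756 to 964 CPM (median 890.1) at 1 Hz without overlap (log2 fold change -0.66, SE 0.07, adjusted p = 6.4e-07). Among its targets, Trib3, a pseudokinase that restrains Akt and ATF4, ranged over 41.2 to 85.2 CPM (median 61.4) at 10 Hz and 90 to 158 CPM (median 136) at 1 Hz (log2 fold change -1.12, SE 0.19, adjusted p = 9.3e-05). Chac1, which degrades glutathione, had medians of 32.7 and 60.9 CPM at 10 and 1 Hz, and Slc7a5, the leucine transporter, medians of 159.6 and 298 CPM. Vldlr, a lipoprotein receptor, ranged over 38.9 to 60.6 CPM (median 43.8) at 10 Hz and 74.8 to 122 CPM (median 95.4) at 1 Hz (log2 fold change -1.06, SE 0.12, adjusted p = 1.1e-06) and was the only member also counted with the covariate. Atf4 itself kept an adjusted p of 0.011 there, with a log2 fold change of -0.48, inside the limit of 0.5. Without the 10 Hz replicates 1 and 2, which were highest in small RNA, 17 of the ATF4 genes and 14 of the ER genes were lower.

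**Figure D4:**
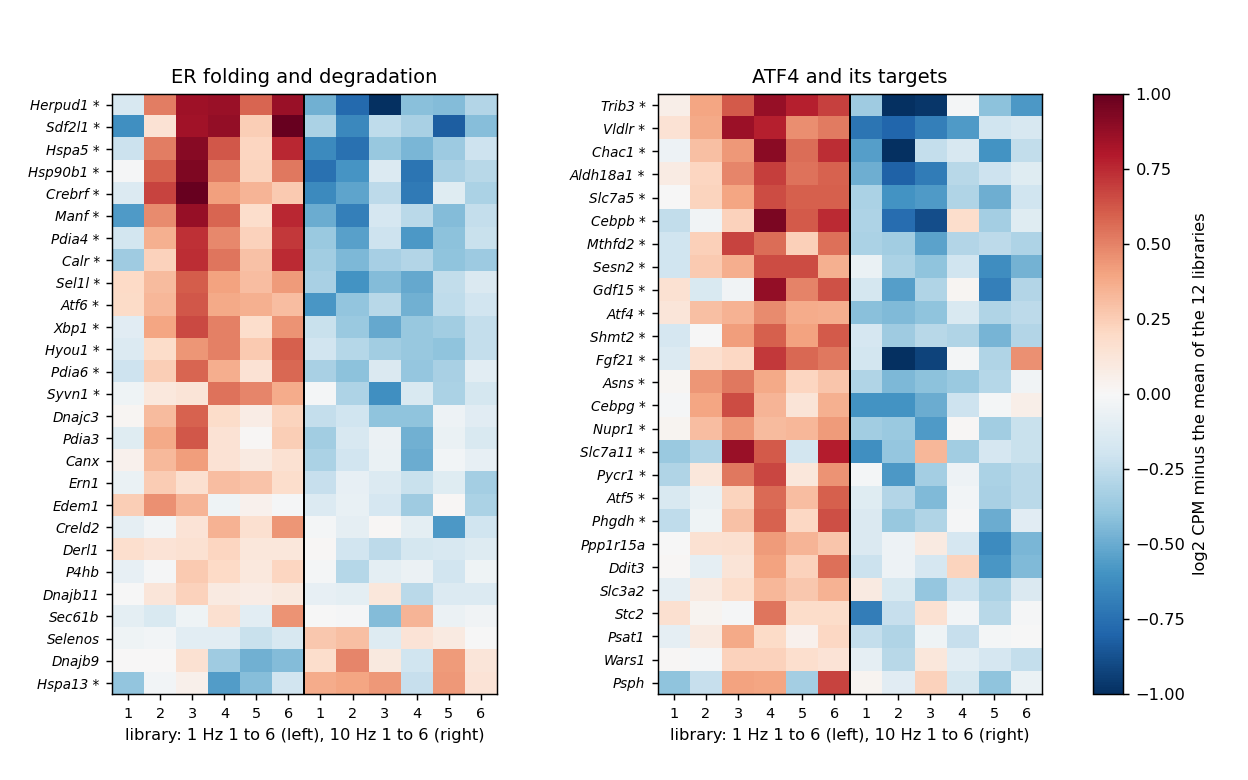
Rows are the 27 genes of ER folding and degradation (left) and the 26 of ATF4 and its targets (right), columns the 6 libraries at 1 Hz and then the 6 at 10 Hz. Color gives log2 CPM minus the mean of the 12 libraries, an asterisk marks genes counted, and the 10 Hz columns are blue in most rows, with replicate 1 the palest at 1 Hz.

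Heat shock genes, most of them cytosolic, leaned the other way, with 8 of 32 higher (25%, against 9.45% of all genes) and a median of 0.14. The 2 lower ones were 6.25%, against 8.49% of all genes. Hspa1a and Hspa1b, near-identical inducible Hsp70 genes whose reads cannot be assigned with certainty, spread widely among 10 Hz tissues. Hspa1a ranged over 8.02 to 210.1 CPM (median 40.3) at 10 Hz and 8.63 to 17.2 CPM (median 13.7) at 1 Hz (log2 fold change 2.41, SE 0.52, adjusted p = 0.00072), with its 3 highest libraries in replicates 1 to 3. Hsph1, a cofactor of Hsp70, ranged over 174 to 496 CPM (median 225) at 10 Hz and 124 to 175 CPM (median 140.2) at 1 Hz (log2 fold change 0.96, SE 0.19, adjusted p = 0.00036). Hsp90aa1, the inducible cytosolic Hsp90, had medians of 1066 and 778 CPM at 10 and 1 Hz (log2 fold change 0.63 ± 0.17 (SE)). The 2 lower members were Hspa9, the mitochondrial Hsp70, with medians of 1123 and 1546 CPM, and Hspb7, a small heat shock protein of muscle. None of the 10 was counted with the covariate. With limma on log2(TPM + 1) 3 were higher and 2 lower, Hsp90aa1 had an adjusted p of 0.0506, and Hspa1a lost its call with a pseudocount of 0.1 (adjusted p = 0.0563).

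Many matrix genes were lower at 10 Hz. Of 23 collagen genes tested, 11 (47.8%) were lower, 10 of them without overlap, with a median of -0.55. Of all genes tested, 8.49% were lower, and 7.49% lay lower without overlap. The largest falls were those of 2 chains of collagen VI, which forms beaded filaments around fibers, Col6a1 over 24.9 to 62.8 CPM (median 36.8) at 10 Hz and 73.8 to 192 CPM (median 138) at 1 Hz (log2 fold change -1.72, SE 0.26, adjusted p = 2.3e-05) and Col6a2 over 10.9 to 21.1 CPM (median 17.3) at 10 Hz and 26.98 to 78.6 CPM (median 53.8) at 1 Hz (log2 fold change -1.73, SE 0.26, adjusted p = 2.1e-05). Collagen III, encoded by Col3a1, had medians of 247 and 448 CPM, and the basement membrane chain Col18a1, the source of endostatin, medians of 63.99 and 134 CPM. As a share of all counts, collagens took 0.128 ± 0.0117% at 10 Hz and 0.214 ± 0.0362% at 1 Hz (exact permutation p = 0.00216, adjusted 0.0115).

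Of 34 other genes of matrix and its proteases, 15 (44.1%, against 8.49% of all genes) were lower. Mmp2, a gelatinase that cleaves denatured collagen and collagen IV, ranged over 122 to 206 CPM (median 155) at 10 Hz and 262 to 539.7 CPM (median 470.1) at 1 Hz (log2 fold change -1.48, SE 0.16, adjusted p = 6.4e-07). Biglycan (Bgn), a small proteoglycan that binds collagen, ranged over 162 to 234 CPM (median 203) at 10 Hz and 334 to 646 CPM (median 542) at 1 Hz (log2 fold change -1.42, SE 0.15, adjusted p = 3.8e-07). Mmp19 had medians of 12.2 and 38.5 CPM at 10 and 1 Hz, and fibronectin (Fn1) medians of 1106 and 1831 CPM (log2 fold change -0.72 ± 0.16 (SE)). Outside this list, fibulin-1 (Fbln1), a glycoprotein of elastic fibers and basement membranes, had medians of 4.68 and 14.01 CPM (log2 fold change -1.87, SE 0.26, adjusted p = 7.7e-06). With the covariate, 2 of the 11 collagens and 5 of the 15 other matrix genes remained lower. The median of the collagens was -0.55 with it as well, and that of the other matrix genes went from -0.45 to -0.36.

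Marker levels in this paragraph are CPM of the total count, without TMM scaling. The summed level of the fibroblast markers Pdgfra, Dpt, Pi16, Cd34, and Thy1 was 39.8 to 51.2 CPM at 10 Hz and 60.9 to 76.7 at 1 Hz. Most of this was Cd34, with means of 33.6 and 48.9 CPM at 10 and 1 Hz. Pdgfra (9.85 and 16.3 CPM) and Pi16 (1.24 and 1.89) also had lower means at 10 Hz. Dpt (0.782 and 0.691 CPM) and Thy1 (0.0393 and 0.0227) did not, and both were near the floor, with Thy1 at 0 to 0.154 and Dpt at 0.306 to 1.18 CPM. Of the 6 fibroblast and adipocyte genes tested, 3 were lower, of which 1 with the covariate. The summed level of 7 muscle markers was 6390 to 8800 CPM at 10 Hz and 7960 to 10800 at 1 Hz. Markers of adipocytes, endothelium, glia, and neurons summed to at most 2.37 CPM, and of the 5 immune markers only Cd68, a lysosomal protein, was above 2.15 CPM. Whether the marker levels have a part in the matrix result was not tested. In bulk RNA, fewer cells of a type and less RNA per cell cannot be told apart.

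Among contractile genes, 8 of the 10 myosin heavy chain genes tested were lower (80%, against 8.49% of all genes), with a median of -0.90. The list also holds nonmuscle, smooth muscle, and cardiac chains. The 4 without overlap were Myh4, Myh10, Myh7b, and Myh6, and 7.49% of all genes were lower without overlap. Myh4, the fast chain of type IIb fibers, ranged over 38.8 to 96.4 CPM (median 52.3) at 10 Hz and 97.8 to 155 CPM (median 136) at 1 Hz (log2 fold change -1.19, SE 0.19, adjusted p = 3.9e-05). Myh8, the perinatal chain, ranged over 167 to 500.1 CPM (median 272) at 10 Hz and 494 to 707 CPM (median 542) at 1 Hz (log2 fold change -0.99, SE 0.18, adjusted p = 0.00014), and Myh7, the slow chain, over 97.6 to 185 CPM (median 149) at 10 Hz and 179 to 422 CPM (median 269) at 1 Hz (log2 fold change -1.0, SE 0.20, adjusted p = 0.00037). Adult and perinatal, fast and slow chains thus all had lower medians, while embryonic Myh3 had medians of 571 and 762 CPM and did not pass the test (adjusted p = 0.0929), which it did without 10 Hz replicate 6 (log2 fold change -0.61, adjusted p = 0.0076). In controls the means of Myh4, Myh8, and Myh7 were 62.8, 234, and 127 CPM. Only Myh4 was also counted with the covariate.

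The membrane system that couples excitation to contraction was lower in 10 of 26 triad genes (38.5%). Cacna1s, the voltage sensor Cav1.1, ranged over 49.4 to 104 CPM (median 75.03) at 10 Hz and 103 to 169 CPM (median 132) at 1 Hz (log2 fold change -0.85, SE 0.14, adjusted p = 4.1e-05), and the ryanodine receptor gene Ryr1 had medians of 162 and 229 CPM at 10 and 1 Hz (log2 fold change -0.53 ± 0.13 (SE)). Junctophilin 2 (Jph2), which ties T-tubules to the sarcoplasmic reticulum, had medians of 245 and 391 CPM, and Stim1, the calcium store sensor, medians of 57.5 and 98.1 CPM. Of 21 genes of excitability and the synapse, 7 (33.3%) were lower. They included the acetylcholine receptor subunits Chrnd (log2 fold change -0.57 ± 0.09 (SE)) and Chrng (log2 fold change -0.64 ± 0.13 (SE)) and the adhesion molecule Ncam1 (log2 fold change -0.79 ± 0.13 (SE)). Skeletal actin, Acta1, among the most abundant transcripts, had medians of 3271 and 4614 CPM (log2 fold change -0.62 ± 0.15 (SE)). With the covariate, Stim1 was the 1 of these 17 that remained.

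The factors that direct myogenesis did not move as a block, with 5 of 16 higher (31.2%) and 3 lower (18.8%), against 9.45% and 8.49% of all genes. Myod1, which commits myoblasts, had medians of 58.5 and 75.9 CPM at 10 and 1 Hz (adjusted p = 0.167), and Myog, which drives their differentiation, medians of 472 and 409 CPM (adjusted p = 0.445). Without 10 Hz replicate 6, Myod1 passed the test as lower (log2 fold change -0.64, adjusted p = 0.0205). Myf6 was higher, with overlapping ranges and medians of 6.53 and 2.44 CPM (log2 fold change 1.29, SE 0.32, adjusted p = 0.0026). Pax7 was counted as lower, but its call ended when 1 of several libraries was left out (adjusted p up to 0.0958). Myf5 did not pass the test (adjusted p = 0.084). Six4, a homeodomain factor upstream of myogenic genes, was higher and ranged over 17.9 to 28.7 CPM (median 23.5) at 10 Hz and 6.48 to 15.99 CPM (median 7.92) at 1 Hz (log2 fold change 1.30, SE 0.20, adjusted p = 2.2e-05). Mymk, the membrane protein required for myoblast fusion, had medians of 287 and 415 CPM (log2 fold change -0.51 ± 0.13 (SE)). Neither Six4 nor Mymk was counted with the covariate, where Id1, an inhibitor of the MyoD family, was the 1 of the 8 that remained (log2 fold change 1.00, adjusted p = 0.0261).

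Among glucose genes, Txnip (ENSMUSG00000038393, chromosome 3, 96465267 to 96469201, plus strand, 8 exons), an arrestin-like protein that responds to glucose and restrains its uptake, ranged over 127 to 242 CPM (median 187) at 10 Hz and 43.4 to 71.9 CPM (median 57.1) at 1 Hz (log2 fold change 1.74, SE 0.18, adjusted p = 2.2e-07). The 2 ranges were well apart, and replicates 1 to 3 at 10 Hz, at 226 to 242 CPM, lay above replicates 4 to 6, at 127 to 149 CPM. Of all 14 members tested, 6 (42.9%, against 8.49% of all genes) were lower, or 3 with limma on log2(TPM + 1). They included the basal glucose transporter Slc2a1 (medians of 279 and 387 CPM), the insulin-responsive transporter Slc2a4 (log2 fold change -0.81), and hexokinase 2 (Hk2, medians of 175 and 264 CPM). Glycogen synthase, Gys1, had medians of 182 and 354 CPM (log2 fold change -0.83, SE 0.13, adjusted p = 2.1e-05), and phosphofructokinase, Pfkm, medians of 250.1 and 377 CPM, among 6 of 24 glycolysis and glycogen genes (25%) that were lower. Txnip was the only one of these genes counted with the covariate.

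Hypoxia-induced genes were lower in 8 of 24 members (33.3%, against 8.49% of all genes). Car9, a carbonic anhydrase of the cell surface, ranged over 85.01 to 109 CPM (median 98.7) at 10 Hz and 123.3 to 276 CPM (median 208) at 1 Hz (log2 fold change -1.08, SE 0.15, adjusted p = 5.3e-06), Ndrg1 had medians of 907 and 1712 CPM, and the angiogenic factor Vegfa medians of 251 and 415 CPM. Ddit4, an inhibitor of mTORC1 that hypoxia also induces, was higher, over 82.8 to 121 CPM (median 106) at 10 Hz and 42.3 to 73.5 CPM (median 56.2) at 1 Hz (log2 fold change 0.88, SE 0.16, adjusted p = 0.00012). Of 21 circadian genes 6 (28.6%) were lower. Among them were the clock repressors Per1 (log2 fold change -0.73 ± 0.16 (SE)) and Per2 (log2 fold change -0.95 ± 0.17 (SE)) and the output factors Dbp (log2 fold change -0.94 ± 0.16 (SE)) and Nfil3 (log2 fold change -0.67 ± 0.08 (SE)). With the covariate, Car9 and Ndrg1 among the falls, Ddit4, and Nfil3 were still counted.

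Secreted factors were lower in 11 of 32 members (34.4%, against 8.49% of all genes) and higher in 5 (15.6%, against 9.45%). The higher count was 3 with DESeq2 and 1 with limma on log2(TPM + 1). Igfbp5, a binding protein of insulin-like growth factors, ranged over 373 to 716 CPM (median 462) at 10 Hz and 834 to 1375 CPM (median 1118) at 1 Hz (log2 fold change -1.15, SE 0.15, adjusted p = 3.7e-06), and the chemokine Cxcl12 over 4.46 to 7.72 CPM (median 6.58) at 10 Hz and 10.2 to 17.8 CPM (median 14.7) at 1 Hz (log2 fold change -1.19, SE 0.15, adjusted p = 3.6e-06). Inhba, a subunit of activin A, had medians of 269.9 and 537 CPM, and the neurotrophin Bdnf medians of 11.3 and 18.7 CPM without overlap. The neurofilament gene Nefl, placed in this list, ranged over 17.6 to 87.5 CPM (median 32.1) at 10 Hz and 9.87 to 26.4 CPM (median 13.3) at 1 Hz (log2 fold change 1.60, SE 0.37, adjusted p = 0.00145). The chemokine Cxcl1 was counted as higher, but a single library, 10 Hz replicate 3 at 41.1 CPM, set its value: without it the log2 fold change was 0.32 (adjusted p = 0.585). Igfbp5, Cxcl12, and Bdnf were counted with the covariate.

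Mitochondrial genes mostly had positive values. Of 13 protein-coding genes of the mitochondrial genome, 5 were higher (38.5%) and all 13 had a positive value, with a median of 0.59. The count was 2 with limma on log2(TPM + 1), 8 without the 10 Hz replicates 1 and 2, and 0 with the covariate, where the median was 0.70. mt-Co1, a subunit of cytochrome oxidase, ranged over 7751 to 16126 CPM (median 11148) at 10 Hz and 5117 to 8239 CPM (median 6215) at 1 Hz (log2 fold change 0.82, SE 0.19, adjusted p = 0.00171). None of the 66 nuclear genes of the respiratory chain was counted by edgeR or DESeq2, and their median was 0.06. At an unadjusted p below 0.05, 19 of the 66 were higher and 5 lower, against 3059 and 3074 of all 13318 genes. Of 78 mitochondrial ribosomal proteins, 11 were higher (14.1%, against 9.45% of all genes), with a median of 0.27 and 71 positive values. Mrps22 ranged over 37.7 to 51.96 CPM (median 44.6) at 10 Hz and 22.2 to 28.9 CPM (median 25.5) at 1 Hz without overlap (log2 fold change 0.80, SE 0.09, adjusted p = 7.1e-07), and it and Mrps17 were counted with the covariate.

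The proteasome degrades ubiquitin-tagged proteins, and its barrel is closed by a ring of 7 alpha subunits. Of 45 proteasome genes, 8 were higher (17.8%, against 9.45% of all genes), with a median of 0.35 and 43 positive values. Of these 8, 6 were alpha subunits, a point chosen after the values were seen. Psma5 ranged over 279 to 369 CPM (median 339.9) at 10 Hz and 179 to 227 CPM (median 197) at 1 Hz (log2 fold change 0.74, SE 0.08, adjusted p = 5.4e-07) and Psma3 over 329 to 393 CPM (median 339.9) at 10 Hz and 182 to 274 CPM (median 225) at 1 Hz (log2 fold change 0.66, SE 0.11, adjusted p = 8.2e-05). In both, every 10 Hz library lay above every 1 Hz library, and Psma5 was the only proteasome gene counted with the covariate. None of 86 cytosolic ribosomal protein genes was counted by edgeR or DESeq2, and their median was 0.10. At an unadjusted p below 0.05, 23 of the 86 were higher, against 3059 of all 13318 genes. Antioxidant genes were higher in 6 of 27 members (22.2%, against 9.45% of all genes). Among them were Prdx6, a peroxiredoxin, with medians of 593 and 379.8 CPM, and Gclm, of glutathione synthesis, with medians of 120 and 76.1 CPM. The 2 lower ones (7.41%, against 8.49% of all genes) were Sod3, the extracellular superoxide dismutase (log2 fold change -1.23 ± 0.21 (SE)), and Slc7a11. None of these 8 was counted with the covariate, and 2 were higher with limma on log2(TPM + 1) and 3 without the 10 Hz replicates 1 and 2.

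Several nuclear and noncoding RNAs were higher at 10 Hz, beside the small RNA shares given above. Of 14 nuclear long noncoding RNAs, 7 were higher (50%, against 9.45% of all genes), or 4 with limma on log2(TPM + 1). Among them were Malat1 over 1232 to 3518 CPM (median 1852) at 10 Hz and 461 to 1005 CPM (median 615) at 1 Hz (log2 fold change 1.58, SE 0.24, adjusted p = 2e-05) and Neat1, the scaffold of paraspeckles, over 182 to 311 CPM (median 223) at 10 Hz and 68.9 to 169 CPM (median 99.2) at 1 Hz (log2 fold change 1.20, SE 0.18, adjusted p = 2.4e-05). Of 18 host genes of small nucleolar RNAs 5 (27.8%) were higher, led by Snhg7 (ENSMUSG00000120369, chromosome 2, 26526613 to 26530577, minus strand, 3 exons), which ranged over 19.5 to 70.3 CPM (median 43.5) at 10 Hz and 6.198 to 11.2 CPM (median 8.41) at 1 Hz (log2 fold change 2.49, SE 0.25, adjusted p = 2.1e-07). Its 10 Hz replicates 1 to 3, at 54.5 to 70.3 CPM, lay above replicates 4 to 6, at 19.5 to 32.6 CPM, and those in turn above all 1 Hz libraries. Replication-dependent histone genes, whose transcripts end without a poly(A) tail, were higher in 5 of 17 tested (29.4%) and in 3 without the 10 Hz replicates 1 and 2. Of the small RNAs themselves, Rn7sk (7SK) ranged over 18.6 to 155 CPM (median 48.1) at 10 Hz and 4.29 to 27.6 CPM (median 8.27) at 1 Hz (log2 fold change 2.64, SE 0.42, adjusted p = 4e-05). Rn7sk is itself part of the covariate, with 66.9 of the mean 124 CPM of small RNA at 10 Hz. The covariate fit therefore cannot test it or the other small RNAs. Among the rest of these genes, Snhg7 was the only one counted with the covariate.

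**Figure D5:**
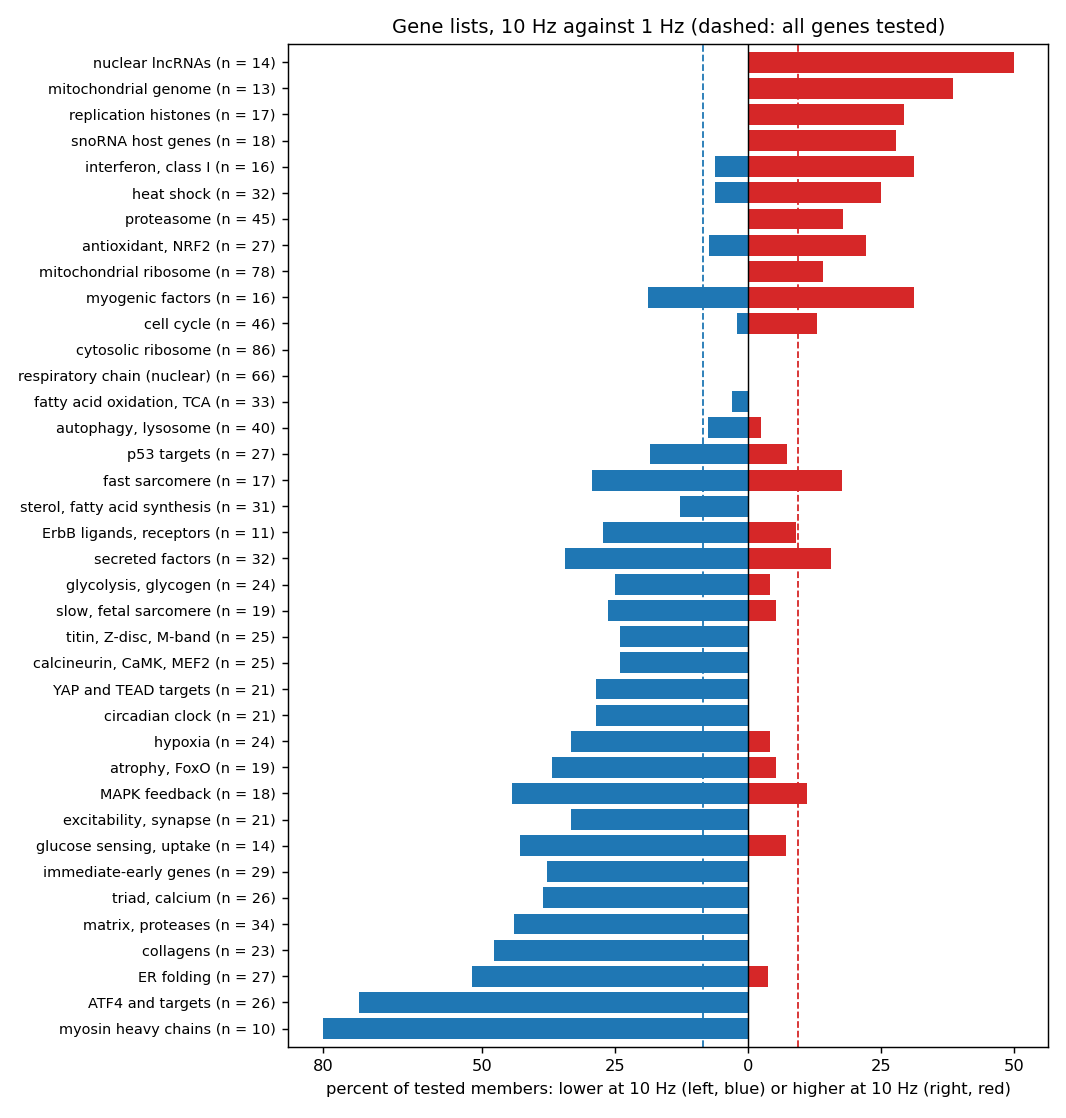
Bars give the percent of each list's tested members counted as higher (red, right) or lower (blue, left) at 10 Hz, with the number tested in parentheses. Dashed lines mark all genes tested, 9.45% higher and 8.49% lower. Small non-polyadenylated RNAs and markers of other cell types are not plotted. Among the lists shown, myosin heavy chains, ATF4 targets, ER folding, and collagens reach furthest to the left, and nuclear lncRNAs and the mitochondrial genome furthest to the right.

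Of the remaining lists, atrophy and FoxO genes were lower in 7 of 19 members (36.8%) and higher in 1, which was Ddit4. The lower members included the ubiquitin ligases Cblb (log2 fold change -0.70 ± 0.09 (SE)) and Nedd4 (log2 fold change -0.54 ± 0.08 (SE)). YAP and TEAD targets were lower in 6 of 21 (28.6%), among them Crim1, a transmembrane protein that binds BMPs (log2 fold change -1.10 ± 0.14 (SE)), and titin, Z-disc, and M-band genes in 6 of 25 (24%), among them the M-band proteins Myom2 (log2 fold change -0.58 ± 0.11 (SE)) and Myom3 (log2 fold change -0.76 ± 0.15 (SE)). Without the 10 Hz replicates 1 and 2 these 3 counts were 4, 3, and 3.

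For the next lists, the shares over all genes tested were 8.49% lower and 9.45% higher, and several lists were near them. Lower members numbered 4 of 31 (12.9%) in sterol and fatty acid synthesis. In fatty acid oxidation and the citrate cycle 1 of 33 (3.03%) was lower, Pdk4, a brake on pyruvate oxidation (log2 fold change -0.81 ± 0.11 (SE)). The p53 targets had 5 lower (18.5%) and 2 higher (7.41%) of 27. Autophagy genes had 3 lower (7.5%) and 1 higher (2.5%) of 40, and 1 was lower with limma on log2(TPM + 1). Fast sarcomere genes had 5 lower (29.4%) and 3 higher (17.6%) of 17. Slow, fetal, and cardiac ones had 5 lower (26.3%) and 1 higher (5.26%) of 19. Interferon and class I genes had 5 higher (31.2%) and 1 lower (6.25%) of 16, with Irf1 at medians of 22.5 and 14.3 CPM. Cell cycle genes had 6 higher (13%) and 1 lower (2.17%) of 46. Without the 10 Hz replicates 1 and 2, those 5 became 2 and those 6 became 0, and with limma on log2(TPM + 1) they became 3 and 0. Ddit4, Crim1, and Pdk4 were among the genes of these lists also counted with the covariate.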

How the data were processed

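The deposited values were unnormalized expected counts of each gene, estimated by Salmon when the authors ran nf-core/rnaseq on GRCm39, and TPM, which the authors scaled to a fixed sum per library and which served only as an alternative. Poly(A) RNA was selected, with ribodepletion for low-input libraries that the labels do not name. Groups came from sample titles. The sources used here do not say whether counting was stranded.

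Estimated counts were rounded, filtered with filterByExpr, scaled by TMM, and tested with edgeR 4.0.16 (glmQLFit and glmQLFTest, R 4.3.3) in a single fit to the 24 libraries by condition alone. SE is the absolute log2 fold change over the square root of F. In the small RNA covariate fit, the share of small non-polyadenylated RNA in each library was an added term. Total counts of 4.09 to 15.2 M per library set the counting error. The labels do not say which tissues shared a plate, so p-values measure the spread between these tissues. On simulated data with 200 changed genes for this comparison (13138 genes), edgeR found 88.1% of genes changed by a log2 of 1 and 92.3% of those changed by 2, with 4.26% of calls false. The simulated counts were drawn at the fit's own dispersions, and no group difference in library makeup was simulated. These shares thus do not cover error from such a difference. DESeq2 1.42.0 and limma 3.58.1 on log2(TPM + 1) were alternatives, as were other scalings, filters, and left-out libraries.

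The comparison, the gene lists, and the naming rules were chosen with earlier results of these data known. Named genes are the 12 largest log2 fold changes each way among counted genes with at least 10 CPM and no overlap of libraries, passing over predicted genes and pseudogenes, the 2 counted members of each list with the smallest p each way and at least 5 CPM, and the study's muscle genes. Others were added after their values were seen to illustrate a list: Hspa5, Hsp90b1, Herpud1, Calr, Syvn1, Trib3, Chac1, Slc7a5, Pycr1, Fgf21, Egr1, Egr2, Fosb, Fos, Myc, Klf4, Atf3, Hbegf, Fn1, Col3a1, Inhba, Bdnf, Vegfa, Cxcl1, Per1, Per2, Ryr1, Cacna1s, Jph2, Acta1, Ncam1, Chrng, Hsp90aa1, Psma3, Id1, and Kcnq1ot1. Genes only listed by name are counted members of their list. Positions came from GENCODE M39, matched by identifier for 99.8% of tested genes. Promoter sequence was read from the GRCm39 genome. The channelrhodopsin transgene was not analysed here.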

Additional observations from a re-analysis of the deposited data

Results flagged for a closer look

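In 17 of 324 groups of 6 libraries (5.25%), the highest or lowest library stood apart from the others of its group by more than Dixon's 95% critical value, and chance alone flags about 5% of such groups. At 1 Hz, replicate 1 was the library concerned for Rn7sk (27.6 CPM), Kcnq1ot1 (5.78), Nefl (26.4), Hoxc11 (11.2), Dusp10 (90.0), Crim1 (17.2), and Fosb (23.9), in each case on the side of the 10 Hz libraries, and this library also held the highest share of small RNA of its group (69.6 CPM). Cxcl1 was highest in 1 Hz replicate 2 (3.95 CPM). At 10 Hz, replicate 6 was highest for Myh3 (1040 CPM), Chrng (379), Ugt1a6a (26.2), and Nrg1 (8.96), each nearer to the 1 Hz libraries, and it held the lowest share of small RNA at 10 Hz (37.2 CPM). Replicate 3 was highest for Cxcl1 (41.1 CPM), Prl2c3 (534), and Egr1 (189), replicate 5 for H2bc21 (11.2), and replicate 2 for Myf5 (32.1). The part of the small RNA share in these values was not tested. Prl2c3 belongs to the proliferin genes, whose copies may share reads.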

How the results depend on the processing

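The counts of 1259 higher and 1131 lower genes stayed within 1.5 times under DESeq2 (1286 and 1134), other scalings, other filters, and thinning to the smallest library. On TPM the lower count held, but the higher count was 750 with limma on log2(TPM + 1), 836 with a pseudocount of 0.1, and 707 without a filter, so that the share of counted genes that were higher went from 52.7% to 41.5%, 41.9%, and 41.7%. Adjusted p alone gave 2359 higher and 2470 lower. The small RNA covariate gave 89 higher and 151 lower, and the cause was not tested. Without the 10 Hz replicates 1 and 2, a choice made after seeing the data, 928 were higher and 905 lower. Leaving out 1 library at a time gave 1070 to 1432 higher and 989 to 1327 lower. The replicate numbers did not pair the libraries: same-numbered libraries correlated from -0.153 to 0.192, above 0.1 in 3 of 6 pairs, and 1 of 6 correlated best with its own number. A replicate block gave 1231 higher and 1143 lower. With it Myod1 (log2 fold change -0.47, adjusted p = 0.00522) and Myh3 (-0.43, adjusted p = 0.00202) passed the adjusted p threshold inside the fold limit, and no other named gene changed its side of it.

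Of 149 named genes that were counted, the covariate left 54 past the adjusted p threshold in the same direction. Some of these 54, among them Atf4, Hspa9, Psmd6, Srl, and Cblb, were then inside the fold limit of 0.5 and no longer counted. The adjusted p of another 92 no longer passed, without a change of sign (with a smaller fold in 88 and an equal or larger one in 4). The covariate reversed 3: Hspa1b to a value that rounds to 0, Mcm5 to -0.17, and Fgf21 to 0.02. Of the named genes not counted in the main fit, Myf5 went to a value that rounds to 0, Myod1 to 0.19, and Fos to -0.71. Fos was at -0.04 without the 10 Hz replicates 1 and 2. Leaving out 1 library ended the call of Cxcl1 (10 Hz replicate 3), Mcm5 (10 Hz 1 or 2, adjusted p up to 0.0606), Kif20a (10 Hz 2 or 3, 1 Hz 3, up to 0.0712), Mylk2 (10 Hz 1 or 4, 1 Hz 3, up to 0.0561), Pax7 (10 Hz 2, 3, or 4, 1 Hz 3, 4, or 6, up to 0.0958), and Slc7a11 (10 Hz 1, 2, 4, or 6, 1 Hz 3, 4, or 6, up to 0.121). The difference in total counts (0.0311 M) ranged from -0.785 to 1.44 M without 1 library, that of histones (0.00656 percentage points) from 0.00497 to 0.00812, and that of cytosolic ribosomal proteins (0.75 percentage points) from 0.498 to 0.964. Genes of low level are limited by depth, since 12 libraries held as few as 4.09 M counts.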

Other observations

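Several gene families that no list held were read after their values were seen and carry no test. Hox genes, the homeodomain factors that record position along the body axis, were higher in 9 of the 14 protein-coding members tested, and all 14 had a positive value, with a median log2 fold change of 0.88. Hoxc11 ranged over 15.5 to 23.2 CPM (median 20.3) at 10 Hz and 5.67 to 11.2 CPM (median 6.66) at 1 Hz (log2 fold change 1.45, SE 0.13, adjusted p = 6.7e-08), and Hoxa7 over 12.9 to 25.9 CPM (median 20.3) at 10 Hz and 4.23 to 10.6 CPM (median 6.90) at 1 Hz (log2 fold change 1.49, SE 0.19, adjusted p = 2.2e-06). Hoxa9, Hoxa10, and Hoxa11 were also fully separated, with medians of 20.4 and 9.67 CPM, medians of 24.4 and 11.7 CPM, and medians of 24.2 and 13.4 CPM at 10 and 1 Hz. Their levels in controls were 23.7 ± 3.93 CPM (SD, n = 6), 23.4 ± 3.75 CPM (SD, n = 6), and 24.9 ± 4.80 CPM (SD, n = 6). With the small RNA covariate 4 of the 9 remained higher.

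Genes of zinc finger proteins named Zfp, most of which bind DNA, were higher in 84 of 307 protein-coding members (27.4%, against 9.45% of all genes). Of these 307, 5 were lower, the median was 0.34, and 7 of the 84 remained with the covariate. Fibulins and fibrillins, glycoproteins of microfibrils and elastic fibers, were lower in 4 of 5 members, and fibroblast growth factors in 4 of 6, among them Fgf2 (log2 fold change -1.28). Eph receptors were lower in 3 of 7. Of all genes tested, 8.49% were lower. Among single genes, Mgat5, which branches the sugar chains of surface glycoproteins, ranged over 5.16 to 8.45 CPM (median 7.32) at 10 Hz and 11.9 to 25.7 CPM (median 22.96) at 1 Hz (log2 fold change -1.58, SE 0.20, adjusted p = 2.2e-06), and Pros1, the anticoagulant protein S, over 3.87 to 7.73 CPM (median 6.63) at 10 Hz and 12.1 to 25.3 CPM (median 17.05) at 1 Hz (log2 fold change -1.58, SE 0.23, adjusted p = 1.7e-05). Both were counted with the covariate as well.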
